A study of Mus musculus with 4 samples.

Results

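Translation initiation factors and the kinases of eIF2 were examined in mouse keratinocytes, which form the outer layer of skin. The members were the genes whose symbol begins with Eif and a digit of the initiation factor families, taken from probe sets annotated to exactly 1 gene symbol. Each gene was represented by its brightest probe set over all arrays, and 3 symbols of this kind on the X or Y chromosome were left out. This gave 44 genes of 18193 named genes on the array, represented by 125 probe sets in all. Eif1, Eif2s1, Eif3g, Eif4g1 and Eif4ebp3 were not analysed here.

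RNA was measured in primary keratinocytes that had been isolated from newborn C57BL/6 mice and cultured. The 4 groups were keratinocytes labelled p38a-KO, here called KO-labelled, collected 4 h after a dose of 75 mJ/cm2 ultraviolet B (UVB), unirradiated KO-labelled keratinocytes, wild-type (WT) keratinocytes 4 h after the same dose, and unirradiated WT keratinocytes. p38alpha, the product of Mapk14, is a MAP kinase that responds to stress, and the labels do not spell out how, or in which cells, the gene was deleted. Each group has 1 Affymetrix expression array, and no mock-irradiated culture kept for 4 h is named. The design sets irradiation against no irradiation in each genotype, and the KO-labelled against the WT cells in each condition.

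Protein synthesis starts when eIF2, carrying GTP and the initiator tRNA, joins the small ribosomal subunit together with eIF1, eIF1A and eIF3. The eIF4 factors bring that subunit to the capped 5-prime end of an mRNA, where eIF4E binds the cap, eIF4G acts as a scaffold and eIF4A unwinds RNA. After the start codon is found, eIF5 promotes GTP hydrolysis by eIF2, eIF5B joins the large subunit, and eIF2B recharges eIF2 with GTP. Stress slows this cycle through kinases that phosphorylate the alpha subunit of eIF2, which then blocks eIF2B, and through 4E-binding proteins that hold eIF4E away from eIF4G. In keratinocytes, UVB is known to cause phosphorylation of the alpha subunit of eIF2. These are steps at the protein level, whereas the arrays measure mRNA.

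The promoters of 35 of the 44 genes were found in the RefSeq promoter table of GRCm38.p6, with 48 listed start sites. The 100 bases before a start site are shown, 5-prime to 3-prime on the strand of the gene, for the kinase gene Eif2ak3, which was lower after UVB under each scaling, for the cap-binding gene, for the helicase pair Eif4a1 and Eif4a2 that differed in size of response, and for the eIF3 subunits Eif3d and Eif3k, whose windows hold different motif letters. Capitals mark the letters CCGGAAG of an ETS motif, CCAAT of a CCAAT box, CACGTG of an E-box, TATAAA of a TATA box, TGACGTCA of a CRE core or the NRF1 motif, on either strand. The windows lie at chr6:70844415-70844514 on the plus strand for Eif2ak3, chr3:138527168-138527267 on the plus strand for the downstream one of the 2 start sites listed for Eif4e, chr11:69672424-69672523 on the minus strand for Eif4a1, chr16:23107368-23107467 on the plus strand for Eif4a2, chr15:77970825-77970924 on the minus strand for Eif3d, and chr7:28981889-28981988 on the minus strand for Eif3k.
Eif2ak3: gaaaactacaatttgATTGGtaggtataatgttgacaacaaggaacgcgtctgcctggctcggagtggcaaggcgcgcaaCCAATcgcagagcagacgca
Eif4e: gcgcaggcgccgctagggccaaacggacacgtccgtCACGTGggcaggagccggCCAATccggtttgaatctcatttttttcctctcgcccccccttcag
Eif4a1: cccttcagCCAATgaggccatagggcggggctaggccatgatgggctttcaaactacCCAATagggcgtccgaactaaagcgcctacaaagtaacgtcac
Eif4a2: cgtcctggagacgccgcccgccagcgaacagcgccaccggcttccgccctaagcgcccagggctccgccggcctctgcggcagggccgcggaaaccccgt
Eif3d: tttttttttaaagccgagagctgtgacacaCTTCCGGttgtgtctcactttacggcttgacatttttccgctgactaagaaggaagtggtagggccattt
Eif3k: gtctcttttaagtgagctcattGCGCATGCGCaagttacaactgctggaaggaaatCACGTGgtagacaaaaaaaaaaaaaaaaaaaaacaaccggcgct

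Motifs were counted in the 250 bases before each start site. The ETS letters were present before 10 of the 35 members with an entry (28.6%), against 7.83% of all 27025 genes of the promoter table and 16% of the 9220 such genes that were tested on the array. They were found before 4 of 8 eIF3 genes (Eif3c, Eif3d, Eif3l and Eif3m) and before 0 of 4 eIF2 kinase genes. The E-box letters were present before 8 of 35 members (22.9%), against 6.86% of all genes and 10.1% of tested genes. The GC box letters GGGCGG stood before 71.4% of the members and 64.6% of tested genes, and the CCAAT letters before 37.1% and 40.5%. TATAAA was found before 2 of 35 members, Eif3b and Eif3f, and TGACGTCA before 0. These are matches of letters in a window and say nothing of binding.

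The arrays differed in scale, which bears on every UVB difference below. The median signal over probe sets was 18.7 units in irradiated and 34.5 units in unirradiated KO-labelled cells, against 18.7 units in irradiated and 30.3 units in unirradiated WT cells. A floor was set at 24.9 units, the middle value of all probe set means over the 4 arrays, and lower values were raised to it. Over the 11379 genes whose mean signal reached the floor, the median log2 difference after UVB was -0.82 in KO-labelled and -0.70 in WT cells. The 18 spike-in control probe sets had a median log2 difference of 0.12 in KO-labelled and 0.01 in WT cells. The 3-prime to 5-prime signal ratio of Gapdh was 0.745 in irradiated and 0.788 in unirradiated KO-labelled cells, against 0.796 in irradiated and 0.759 in unirradiated WT cells. That of Actb was 1.13 in irradiated and 1.14 in unirradiated KO-labelled cells, against 1.17 in irradiated and 1.19 in unirradiated WT cells. That of the transferrin receptor was higher after UVB in both genotypes, at 2.70 in irradiated and 2.53 in unirradiated KO-labelled cells, against 2.68 in irradiated and 2.37 in unirradiated WT cells. Of 6 Mapk14 probe sets, 5 reached the floor. Signal was lower in KO-labelled than in WT cells in 0 of these after UVB and in 1 without irradiation. The brightest was higher in KO-labelled cells, with 647 against 293 units in WT cells after UVB, and 1449 against 985 units without irradiation. The genotype therefore rests on the study's labels alone, and a probe set outside the deleted part of the gene would check nothing. All 10 keratinocyte markers were at or above the floor on every array, while 2 or 3 of 7 leukocyte and Langerhans markers were (Ptprc, Cd3e and Cd207 on no array) and at most 1 of 4 endothelial markers was.

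Of the 44 members, 43 reached the floor in mean signal and were tested. The exception was Eif4a3, a helicase of the exon junction complex, whose only probe set stayed below the floor on all 4 arrays. It had 2.73 units or less in KO-labelled cells and 21.95 units or less in WT cells. The other probe sets spanned mean signals from 37.0 units for Eif2ak4 to 10342 units for Eif5a.

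**Figure D1:**
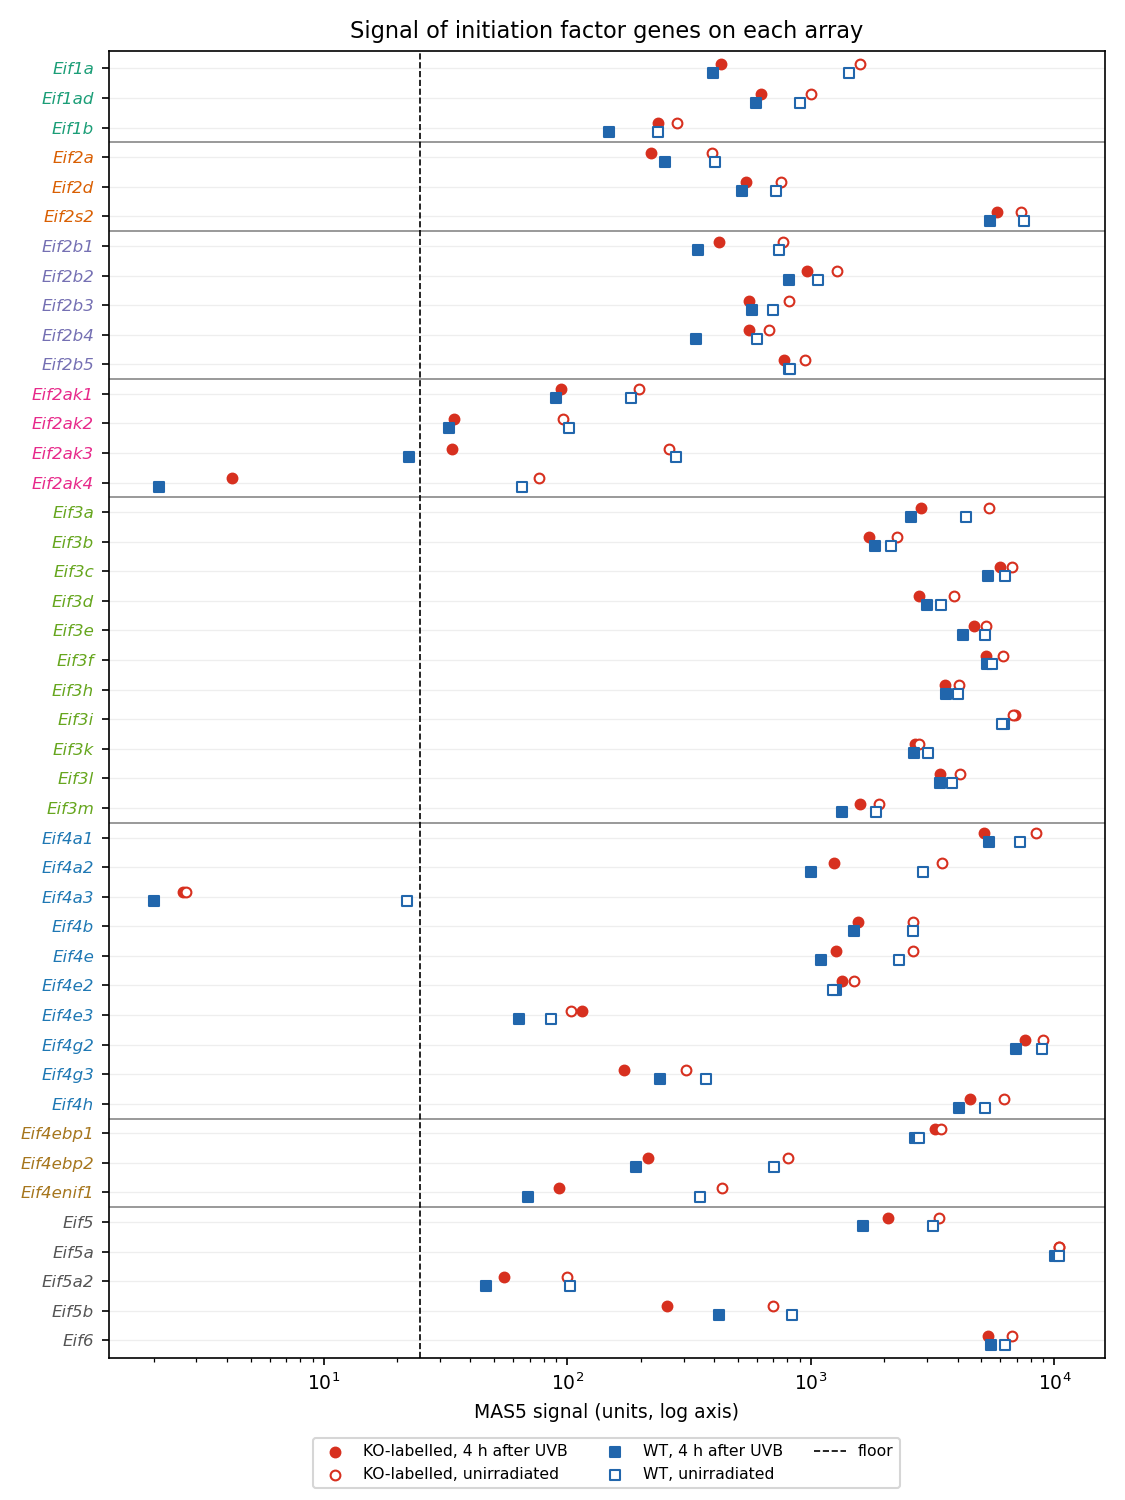
MAS5 signal of the 44 initiation factor genes on each array, on a log axis in arbitrary units, grouped by role, with the floor of 24.9 units as a dashed line. Filled symbols are irradiated and open symbols unirradiated cells (circles KO-labelled, squares WT); filled symbols lie left of open ones for most genes, with wide gaps for the 4 eIF2 kinases and narrow ones for the eIF3 subunits.

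After UVB, most initiation factor genes had lower signal in both genotypes as deposited. The members' median log2 difference was -0.48 in KO-labelled and -0.46 in WT cells, against the medians over all tested genes of -0.82 and -0.70. After quantile normalization the members' medians no longer lay above those of all genes. They were 0.03 in KO-labelled and -0.06 in WT cells, against 0.06 and 0.05 over all genes. After median centring the members' medians still lay above, at 0.65 and 0.61, against 0.28 and 0.32 over all genes. Signal was 2-fold or more lower for 10 of 43 members (23.3%) in KO-labelled cells, where 39.3% of all tested genes were, and for 11 of 43 (25.6%) in WT cells, where 34.8% of all tested genes were. Both counts include Eif2ak4, whose lower value followed from the floor and the filter, as described below. Signal was 2-fold or more higher for 0 of 43 members in either genotype, where 0.167% of tested genes were so in KO-labelled and 0.58% in WT cells. Below the all-gene median lay 15 of 43 members in KO-labelled and 16 of 43 in WT cells. With 1 array per group these pairwise differences have no test.

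A limma model with additive terms for irradiation and genotype was applied to all 11379 genes. Its p-values for UVB set the mean UVB difference of the genotypes against an error. That error combines the disagreement of the genotypes (1 residual degree of freedom) with a variance borrowed from all genes (8.13 prior degrees of freedom). It does not measure the spread between cultures. By this fit 33 of 43 members (76.7%) fell after UVB at a Benjamini-Hochberg adjusted p under 0.05, against 69.4% of all tested genes. By the same limma fit 0 of 43 rose (0.703% of all tested genes), and 0 had a positive effect at an unadjusted p under 0.05, where the all-gene share was not computed. These directions depend on array scaling: quantile normalization, which moved the all-gene median to 0.06 in KO-labelled and 0.05 in WT cells, left 14 members lower and 7 higher, and median centring, which moved it to 0.28 and 0.32, left 6 lower and 29 higher. The shares of all tested genes passing under these rescalings were not computed. Counts after rescaling, here and below, therefore cannot be read as particular to the members, their roles or other listed genes. The 6 genes that passed as lower under median centring also did so under quantile normalization, namely Eif1a, Eif2ak3, Eif2ak4, Eif4a2, Eif4ebp2 and Eif4enif1. The call of Eif2ak4, counted here and among the 33, followed from the floor and the filter, as described below. In bulk RNA, fewer cells of a type and less RNA per cell cannot be told apart.

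**Figure D2:**
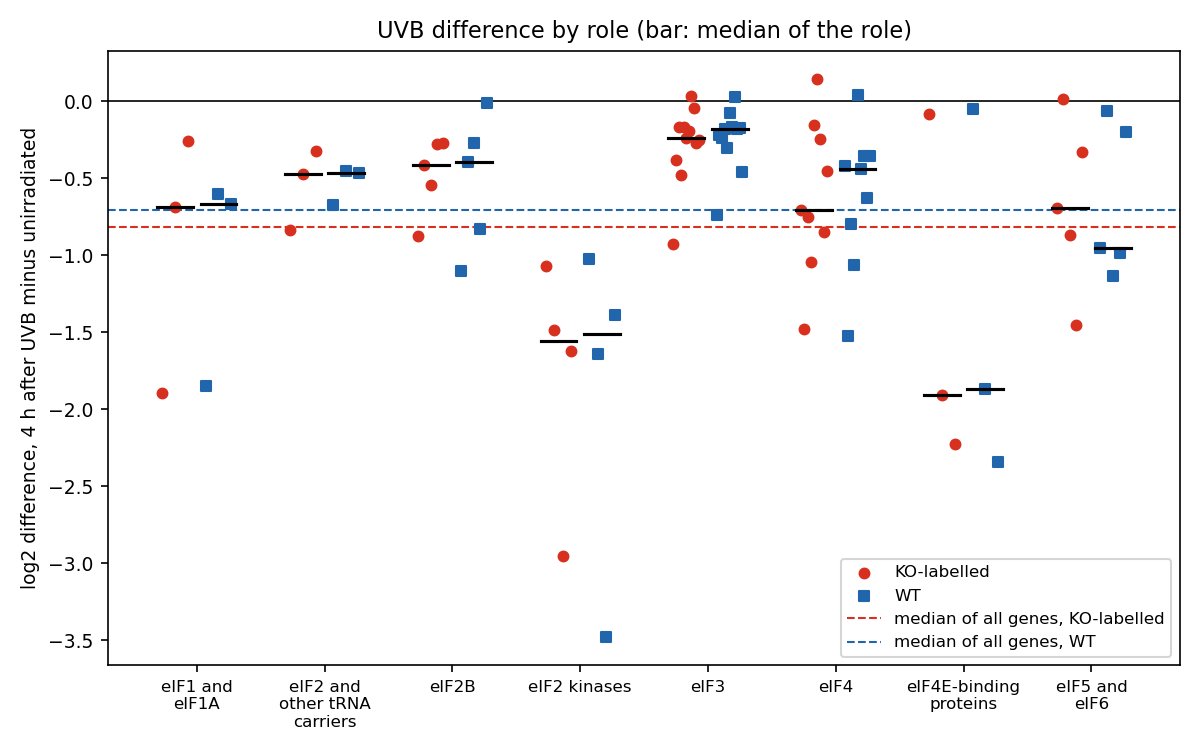
Log2 signal difference, 4 h after UVB minus unirradiated, of each tested member by role, in KO-labelled (circles) and WT cells (squares), with black bars for the median of a role and dashed lines for the median of all tested genes. The 4 eIF2 kinases lie below both dashed lines (role medians -1.55 in KO-labelled and -1.51 in WT cells), and 10 of 11 eIF3 subunits lie above them (role medians -0.24 and -0.18). Irradiated values of Eif2ak4 were replaced by the floor.

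The 4 eIF2 kinase genes had the lowest median signal ratio of the roles with more than 3 members. By their brightest probe sets all of them were 2-fold or more lower after UVB in both genotypes. For Eif2ak4 a lower value was fixed in advance by the floor and the filter, as described below, so it adds no support to either statement. With the mean over probe sets, Eif2ak1 in KO-labelled cells (-0.93) and Eif2ak2 in WT cells (-0.94) were under 2-fold. Eif2ak1, Eif2ak2 and Eif2ak3 fell by the limma fit, but of these 3 only Eif2ak3 passed as lower after quantile normalization and after median centring. Eif2ak3, which encodes PERK, the kinase of the endoplasmic reticulum stress response, had 33.7 units after UVB and 262 units without it in KO-labelled cells, a 7.76-fold lower signal. In WT cells it had 22.4 units after UVB, below the floor, and 278 units without it, at least 11.2-fold lower. With this floor Eif2ak3 had the lowest ratio of all members in both genotypes, but with the floor at the 25th percentile the ratio of Eif2ak4 in KO-labelled cells was lower (-3.03 against -2.96). Relative to the all-gene median its log2 difference was -2.14 in KO-labelled and -2.78 in WT cells. Its limma effect was -3.22 log2 units (SE 0.22, adjusted p = 5.4e-06), with the same direction in both genotypes, and it was -2.36 after quantile normalization and -2.20 after median centring.

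Eif2ak4, which encodes GCN2, the kinase activated by uncharged tRNA and stalled ribosomes, had 4.20 units after UVB and 76.6 units without it in KO-labelled cells, at least 3.08-fold lower. In WT cells it had 2.10 units after UVB and 65.1 units without it, at least 2.61-fold lower. Its mRNA was thus above the floor only without irradiation, in both genotypes. GCN2 is the kinase that phosphorylates eIF2 after ultraviolet light in mouse fibroblasts, as known from other studies. Both irradiated values of Eif2ak4 were replaced by the floor and it passed the filter through its unirradiated values, so a lower value was fixed in advance and its limma p is no support. Its limma effect of -1.50 moved to -2.91 under a floor at the 25th percentile.

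Eif2ak2, which encodes PKR, the kinase activated by double-stranded RNA, had 34.4 units after UVB and 96.3 units without it in KO-labelled cells, 2.80-fold lower. In WT cells it had 32.6 units after UVB and 101.8 units without it, 3.12-fold lower. Eif2ak1, which encodes HRI, the heme-regulated kinase, had 93.9 units after UVB and 197 units without it in KO-labelled cells, 2.10-fold lower, and 89.96 units after UVB and 183 units without it in WT cells, 2.03-fold lower. For both genes the irradiated values lay below both unirradiated values. A dimmer probe set of Eif2ak2 had a log2 difference of -1.0005 in KO-labelled but only -0.17 in WT cells. Both genes fell by the limma fit (Eif2ak2 -1.56, adjusted p = 0.00031; Eif2ak1 -1.05, adjusted p = 0.00068). Relative to the all-gene median the differences of Eif2ak1 were only -0.25 in KO-labelled and -0.32 in WT cells, and its limma effect turned to 0.05 under both rescalings, while that of Eif2ak2 no longer passed (-0.56 after quantile normalization, adjusted p = 0.12, and -0.46 after median centring, adjusted p = 0.15).

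All 3 genes of the eIF1 and eIF1A group fell by the limma fit, with a median effect of -0.64, but 1 was lower and 1 higher after quantile normalization, and 1 lower and 2 higher after median centring. Eif1a, which encodes eIF1A, a factor that keeps the small subunit open for scanning, had 429 units after UVB and 1596 units without it in KO-labelled cells, 3.72-fold lower. In WT cells it had 395 units after UVB and 1427 units without it, 3.61-fold lower. Its effect of -1.87 (limma adjusted p = 3.6e-06) was among those that passed as lower under each scaling. Eif1b, a paralog of the start-codon factor eIF1, had 235 units after UVB and 282 units without it in KO-labelled cells, against 148 units after UVB and 235 units without it in WT cells. Its limma effect of -0.46 (adjusted p = 0.032) turned to 0.52 after quantile normalization and 0.64 after median centring.

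The 3 genes for eIF2 beta and other carriers of initiator tRNA all fell by the limma fit, by between 0.40 and 0.76 on the log2 scale, but under median centring 0 of 3 were lower and 2 of 3 higher. Eif2a, which encodes a protein that delivers tRNA without eIF2 and is not the alpha subunit of eIF2, had 221 units after UVB and 394 units without it in KO-labelled cells, and 251 units after UVB and 402 units without it in WT cells. Of the 5 subunits of eIF2B, the nucleotide exchange factor of eIF2, 4 fell by the limma fit, with a median effect of -0.41, although 4 of 5 were higher under median centring. Eif2b1, its alpha subunit, had 421 units after UVB and 771 units without it in KO-labelled cells, 1.83-fold lower, and 344 units after UVB and 739.6 units without it in WT cells, 2.15-fold lower. Its limma effect was -0.99 (adjusted p = 0.00012), -0.20 after quantile normalization and 0.11 after median centring. Eif2b5, the catalytic epsilon subunit, had 779 units after UVB and 942 units without it in KO-labelled cells, and 816 units after UVB and 823 units without it in WT cells. Its limma effect of -0.14 did not pass (adjusted p = 0.30). Eif2b3, the gamma subunit, had 557 units after UVB and 812 units without it in KO-labelled cells, and 575 units after UVB and 696 units without it in WT cells. By brightest probe sets Eif2b1 therefore had the lowest UVB ratio and Eif2b5 the highest of the complex in both genotypes. In KO-labelled cells Eif2b5 (-0.274) lay barely above Eif2b4 (-0.280), and another probe set of Eif2b2 was higher still, at 0.139.

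The 11 eIF3 subunits, which hold the small ribosomal subunit ready for mRNA, had the smallest median difference of the roles with more than 3 members. None of them was 2-fold lower in either genotype, and the role medians were -0.24 in KO-labelled and -0.18 in WT cells. By the limma fit 6 of 11 fell and 5 did not pass, with effects between -0.83 and 0.03. Quantile normalization left 1 lower and 1 higher, and median centring made all 11 higher. Eif3a, the large scaffold subunit, stood apart with 2835 units after UVB and 5386 units without it in KO-labelled cells, 1.90-fold lower, and 2585 units after UVB and 4319 units without it in WT cells, 1.67-fold lower. Its limma effect was -0.83 (adjusted p = 5.4e-05), and it was the single eIF3 gene below the all-gene median in each genotype. Its effect was -0.51 after quantile normalization and turned to 0.27 after median centring.

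At the other end, Eif3i had 6876 units after UVB and 6737 units without it in KO-labelled cells, and 6219 units after UVB and 6096 units without it in WT cells. By brightest probe sets as deposited, it was the only member with higher signal after UVB in both genotypes, by 1.02-fold in each. Its limma effect of 0.03 did not pass (adjusted p = 0.76). The other Eif3i probe set above the floor was lower after UVB, at -0.12 in KO-labelled and -0.05 in WT cells. With the mean over probe sets the limma effect of Eif3i was -0.03. Eif3k had 2677 units after UVB and 2766 units without it in KO-labelled cells, and 2663 units after UVB and 3014 units without it in WT cells, an effect of -0.11 that did not pass (limma adjusted p = 0.30). Eif3b, the subunit that contacts Eif3i, and Eif3d, a subunit with a cap-binding activity known from human cells, had limma effects of -0.30 and -0.33 (adjusted p = 0.022 and 0.016). Eif3b had 1731 units after UVB and 2254 units without it in KO-labelled cells, and 1834 units after UVB and 2135 units without it in WT cells. Eif3d had 2787 units after UVB and 3878 units without it in KO-labelled cells, and 3000.4 units after UVB and 3405 units without it in WT cells. Both effects turned positive after quantile normalization (0.16 and 0.0035) and median centring (0.80 and 0.77).

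The eIF4 group held pairs of related genes that differed in size of UVB response. Eif4a2, a helicase paralog, had 1240.0 units after UVB and 3464 units without it in KO-labelled cells, 2.79-fold lower, and 1005 units after UVB and 2895 units without it in WT cells, 2.88-fold lower. Eif4a1, the main helicase of cap-dependent initiation, had 5133 units after UVB and 8368 units without it in KO-labelled cells, 1.63-fold lower, and 5375 units after UVB and 7200.1 units without it in WT cells, 1.34-fold lower. The difference of Eif4a2 was therefore larger than that of Eif4a1 in both genotypes. By the limma fit both fell (Eif4a2 -1.50, adjusted p = 4.1e-06; Eif4a1 -0.56, adjusted p = 0.00060), but after median centring Eif4a2 was at -0.40 and Eif4a1 at 0.54. The test of the difference between the paralogs was not run.

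Eif4e, which encodes the cap-binding protein, had 1271 units after UVB and 2624 units without it in KO-labelled cells, 2.06-fold lower, and 1103 units after UVB and 2309 units without it in WT cells, 2.09-fold lower. Its limma effect of -1.06 (adjusted p = 1.9e-05) was -0.57 after quantile normalization and 0.04 after median centring. By their brightest probe sets its paralogs had smaller differences. Eif4e2, which encodes the cap-binding repressor 4EHP, had 1344 units after UVB and 1496 units without it in KO-labelled cells, and 1270 units after UVB and 1234 units without it in WT cells. Eif4e3 had 115 units after UVB and 103.9 units without it in KO-labelled cells, and 63.1 units after UVB and 85.5 units without it in WT cells. Neither passed the limma test (adjusted p = 0.65 and 0.57), but with the mean over probe sets Eif4e2 passed as lower, at -0.79 (adjusted p = 0.0011).

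Of the scaffold genes, Eif4g2, which encodes DAP5, a relative of eIF4G that does not bind eIF4E, had 7563 units after UVB and 8962 units without it in KO-labelled cells, and 6949 units after UVB and 8907 units without it in WT cells. Eif4g3, which encodes the scaffold eIF4GII, had 170.5 units after UVB and 308 units without it in KO-labelled cells, and 239.8 units after UVB and 372 units without it in WT cells. The irradiated values lay below the unirradiated ones for both genes. By the limma fit Eif4g2 fell by 0.30 (adjusted p = 0.0092) and Eif4g3 by 0.74 (adjusted p = 0.0018), and after median centring these effects were 0.80 and 0.36. With the mean over probe sets the effect of Eif4g2 was -0.26 and no longer passed (limma adjusted p = 0.051). Over the group, 7 of 9 tested genes fell by the limma fit, against 5 lower and 2 higher after quantile normalization and 1 lower, Eif4a2, and 6 higher after median centring. The helicase cofactors Eif4b and Eif4h were among the 7.

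By their brightest probe sets, the genes of the 3 proteins that bind eIF4E differed in size of response. Eif4enif1, which encodes 4E-T, a shuttling protein that takes eIF4E to the nucleus and to P-bodies, had 92.7 units after UVB and 433 units without it in KO-labelled cells, 4.68-fold lower. In WT cells it had 68.9 units after UVB and 349 units without it, 5.06-fold lower. Eif4ebp2, which encodes the repressor 4E-BP2, had 214 units after UVB and 804 units without it in KO-labelled cells, 3.76-fold lower, and 192 units after UVB and 703 units without it in WT cells, 3.66-fold lower. In each genotype these ratios were the lowest after that of Eif2ak3 with the floor used here, whereas Eif2ak4 lay below both of them with the floor at the 25th percentile (-3.03 in KO-labelled and -2.79 in WT cells). Both fell by the limma fit (Eif4enif1 -2.28, adjusted p = 6.4e-06; Eif4ebp2 -1.89, adjusted p = 5.4e-06) and stayed lower under quantile normalization (-1.24 and -1.01) and median centring (-1.18 and -0.79).

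Eif4ebp1, which encodes 4E-BP1, the best known of these repressors and a target of mTOR, had 3224 units after UVB and 3412 units without it in KO-labelled cells, 1.06-fold lower. In WT cells it had 2669 units after UVB and 2772 units without it, 1.04-fold lower. Its effect of -0.07 did not pass (limma adjusted p = 0.51), and it was 0.27 after quantile normalization and 1.03 after median centring. With the mean over its probe sets it passed as lower, at -0.53 (limma adjusted p = 0.0018).

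Of the 5 genes for eIF5, eIF5A, eIF5B and eIF6, 4 fell by the limma fit, with a median effect of -0.82, against 2 lower and 0 higher after quantile normalization and 0 lower and 3 higher after median centring. Eif5b, the GTPase that joins the large ribosomal subunit, had 256 units after UVB and 700.3 units without it in KO-labelled cells, 2.73-fold lower, and 421 units after UVB and 835 units without it in WT cells, 1.98-fold lower. Its limma effect of -1.22 (adjusted p = 7.7e-05) was -0.42 after quantile normalization and -0.12 after median centring, where it no longer passed (adjusted p = 0.47). Eif5a, which encodes a hypusine-bearing factor that now counts among elongation and termination factors, had 10486 units after UVB and 10392 units without it in KO-labelled cells, and 10007 units after UVB and 10483 units without it in WT cells. Its limma effect of -0.03 did not pass (adjusted p = 0.77).

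Eif5a2, the paralog of Eif5a, had 54.9 units after UVB and 100.1 units without it in KO-labelled cells, 1.82-fold lower, and 46.5 units after UVB and 102 units without it in WT cells, 2.20-fold lower. By the limma fit it fell by 1.0025 on the log2 scale (adjusted p = 0.0031), and the effect turned to 0.08 after quantile normalization and 0.10 after median centring. By brightest probe sets as deposited, these paralogs thus had UVB differences of unlike size, as in the Eif4a and Eif4ebp families, which was not tested. After quantile normalization the limma effect of Eif5a was 0.0024, against 0.08 for Eif5a2, and after median centring 1.07 against 0.10. The other probe set of Eif5a had -0.33 in KO-labelled and -0.27 in WT cells.

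Among the members the size of the UVB difference moved with signal. Over the 43 members, Pearson's r between log2 mean signal and the log2 UVB difference was 0.53 in KO-labelled and 0.57 in WT cells, as a description across genes that share arrays, where it was 0.102 and 0.067 over all tested genes. Of the 10 members with a mean signal under 400 units, which include the 4 kinases, 6 lay below the median of all genes of their signal class in each genotype. All tested genes between 100 and 400 units had a median log2 difference of -1.03 in KO-labelled and -0.96 in WT cells. All genes between 1600 and 6400 units, the class of 17 members and most eIF3 subunits, had medians of -0.36 and -0.26, and the members there had medians of -0.33 and -0.24. Between 400 and 1600 units the 11 members had medians of -0.54 in KO-labelled and -0.60 in WT cells, against -0.72 and -0.62 over all genes. Above 6400 units the 5 members had lower medians (-0.24 and -0.36) than all 123 genes there (-0.02 and -0.09). The part of signal in the contrast of kinases and eIF3 subunits was not tested. For the length of the gene from start to end, which had a median of 19.5 kb over the members and 22.9 kb over all tested genes, r with the members' UVB difference was -0.33 in KO-labelled and -0.25 in WT cells, against -0.29 and -0.32 over all tested genes.

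**Figure D3:**
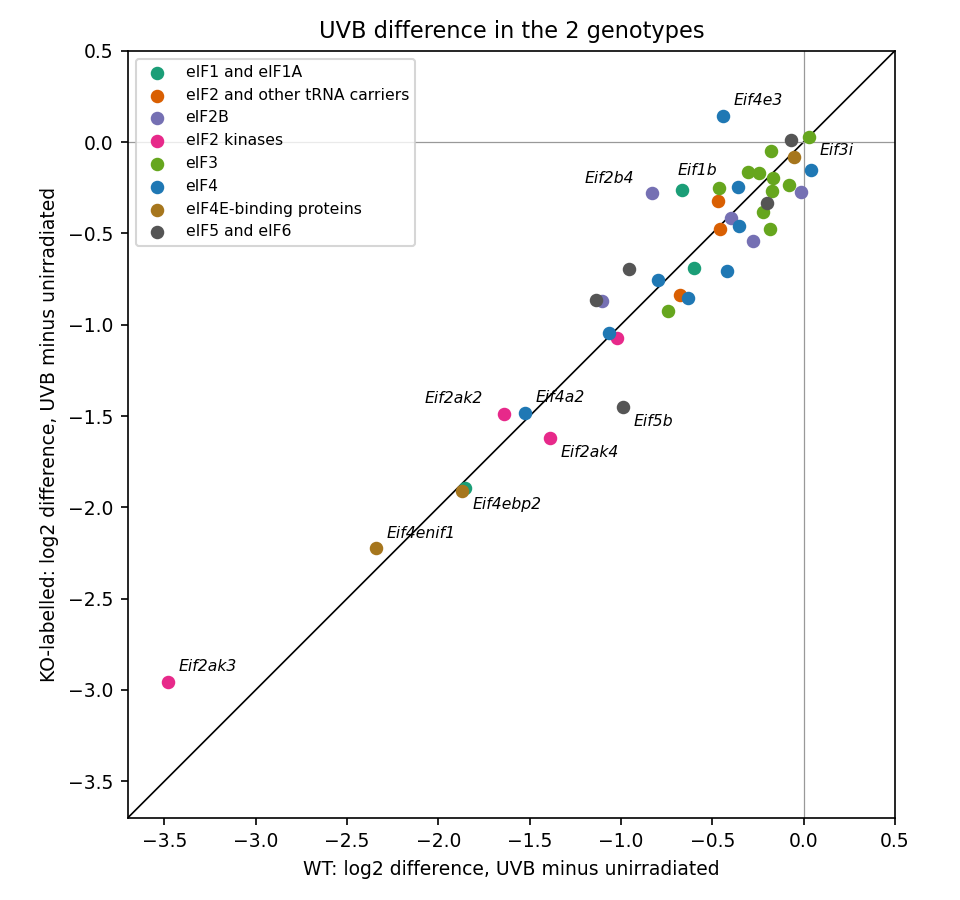
Log2 signal difference, UVB minus unirradiated, of the 43 tested members in KO-labelled cells (vertical axis) against WT cells (horizontal axis), coloured by role, with the line of equal differences. Points run along the line up to Eif3i (0.03 in both), and Eif4e3, Eif2b4, Eif2ak3 (-2.96 and -3.48), Eif5b and Eif1b lie farthest from it.

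The UVB differences of the members ran in parallel in the 2 genotypes, with a Pearson's r of 0.95 and a Spearman's rho of 0.86 over 43 genes, where all 11379 tested genes had 0.81 and 0.78. The difference between the responses, KO-labelled minus WT, was at least 1 log2 unit for 0 of 43 members in either direction, where it was so for 2.94% of tested genes downwards and 1.34% upwards. It was highest for Eif4e3 (0.58), Eif2b4 (0.55), Eif2ak3 (0.53, computed with the floor for irradiated WT cells), Eif1b (0.40) and Eif5a2 (0.27). It was lowest for Eif5b (-0.46), Eif3d (-0.29), Eif4a1 (-0.28), Eif2b3 (-0.27) and Eif2b5 (-0.26). These differences have no test, since 1 array per group leaves no residual.

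Between genotypes, no member differed by 2-fold or more in either condition. After UVB, 1.47% of all tested genes were 2-fold or more lower and 1.41% higher in KO-labelled than in WT cells, and without irradiation 0.729% were lower and 1.63% higher. By the limma fit 0 of 43 members passed for genotype in either direction (0.642% of tested genes lower and 0.967% higher). At an unadjusted p under 0.05 by that fit, 2 were lower and 8 higher. The share of all tested genes at that threshold was not computed, so these counts cannot be read as particular to the members. The median log2 difference, KO-labelled minus WT, was 0.10 over the members after UVB, against 0.05 over all tested genes, and 0.11 without irradiation, against 0.16.

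Eif4e3, a cap-binding paralog, had the largest genotype difference after UVB, 1.82-fold higher in KO-labelled cells, and was 1.22-fold higher without irradiation. Its other probe set above the floor had 81.6 units in KO-labelled and 36.9 units in WT cells after UVB, and 107 units in KO-labelled and 42.2 units in WT cells without irradiation. The genotype effect of Eif4e3 was 0.57 (SE 0.23) and did not pass (limma adjusted p = 0.24). With the mean over its probe sets in place of the brightest, it was the single member that passed as higher for genotype, and it was 2-fold or more higher after UVB.

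Eif2b4, the delta subunit of eIF2B, had 555 units in KO-labelled and 336 units in WT cells after UVB, 1.65-fold higher, and 674 units in KO-labelled and 598 units in WT cells without irradiation. Eif1b was 1.59-fold higher in KO-labelled than in WT cells after UVB and 1.20-fold higher without irradiation. Eif4enif1 was 1.34-fold higher after UVB and 1.24-fold higher without it. Eif5b was 1.64-fold lower in KO-labelled than in WT cells after UVB and 1.19-fold lower without irradiation, and Eif4g3 was 1.41-fold and 1.21-fold lower. The second probe set of Eif5b showed no such difference after UVB, with 172 units in KO-labelled and 173 units in WT cells, and that of Eif4g3 was higher in KO-labelled cells, with 52.2 units against 42.2 units in WT cells. None of these effects passed the limma test (adjusted p between 0.14 and 0.29).

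Summed marker signals of fibroblasts and melanocytes were also higher in KO-labelled than in WT cells. The summed signal of 8 fibroblast markers was 4736 units in KO-labelled and 2770.3 units in WT cells after UVB, and 6779.5 units in KO-labelled and 3531 units in WT cells without irradiation. The sum of 7 melanocyte markers was 5619.95 units in KO-labelled and 4823 units in WT cells after UVB, and 8582 units in KO-labelled and 6148 units in WT cells without irradiation. Not every marker followed its sum. Without irradiation Pdgfra had 97.2 units in KO-labelled and 109 units in WT cells, and Dcn had 94.0 and 93.6 units. After UVB Sox10 had 50.3 units in KO-labelled and 62.4 units in WT cells. Keratinocyte markers summed to 32923 units in KO-labelled and 31375 units in WT cells after UVB, and to 38372 units in KO-labelled and 39028 units in WT cells without irradiation. Most of that sum was Krt5 and Krt14, and single markers differed more. Krt1 had 1730 units in KO-labelled and 708 units in WT cells after UVB, and 1814 and 1287 units without irradiation. Krt10 had 1361 and 526 units after UVB, and 1170 and 659 units without irradiation. Trp63, Krt15 and Ivl were also higher in KO-labelled than in WT cells in both conditions, whereas Itgb4 and Col17a1 were lower in both. Krt14 was lower by little, with 11820 against 11980 units after UVB and 12320 against 12588 units without irradiation. Krt5 and Itga6 were higher in KO-labelled cells after UVB and lower without irradiation. The part of these cell types and markers in the genotype differences was not tested.

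**Figure D4:**
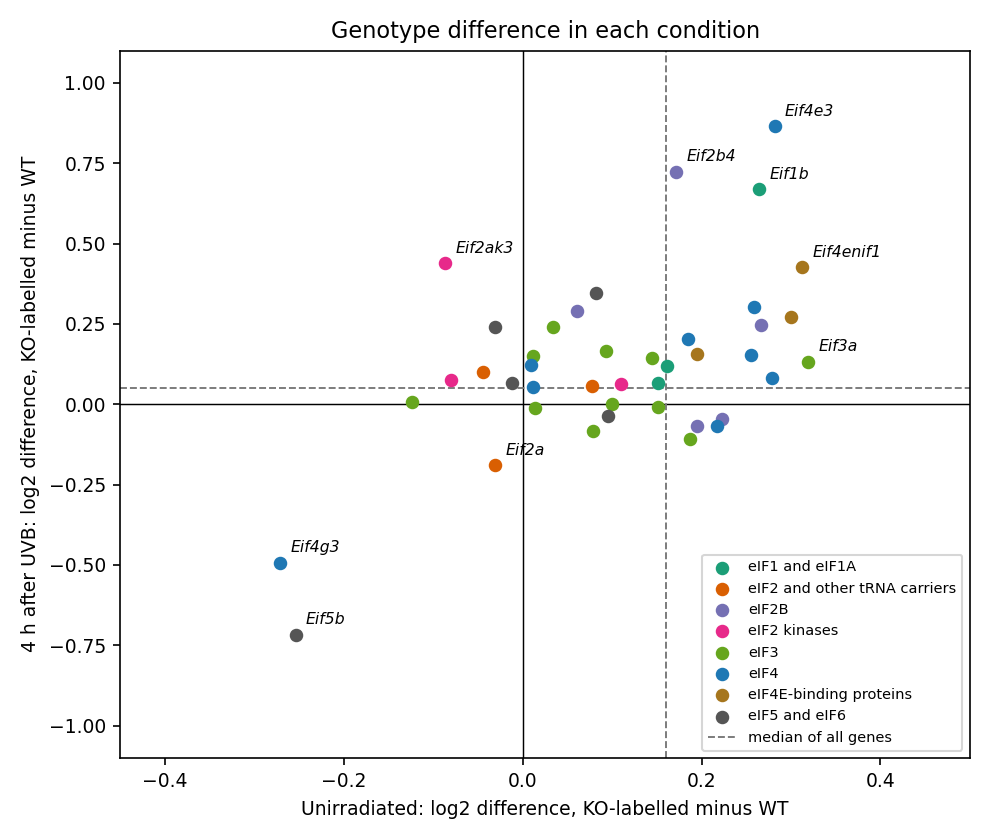
Log2 signal difference, KO-labelled minus WT, of the tested members 4 h after UVB (vertical axis) against the same difference without irradiation (horizontal axis), coloured by role, with dashed lines at the median of all tested genes (0.05 and 0.16). Eif4e3 lies highest (0.87 after UVB) and Eif5b lowest (-0.72); Eif2ak4, below the floor in both genotypes after UVB, is not drawn.

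Of the 43 tested members, 29 had 2 or more probe sets whose mean signal reached the floor, 89 in all. Their UVB differences had one sign in 23 of 29 genes in KO-labelled and in 22 of 29 in WT cells, and the median range within a gene was 0.41 and 0.36 log2 units. The range reached 1 log2 unit for 3 genes in KO-labelled and 6 in WT cells. For Eif4ebp1, a dim probe set had 51.7 units after UVB and 143 units without it in KO-labelled cells, and 49.7 units after UVB and 112 units without it in WT cells, so it was 2.77-fold and 2.25-fold lower where the brightest was not. For Eif4e2, 3 dim probe sets were between 2.26-fold and 2.85-fold lower in KO-labelled and between 1.89-fold and 2.70-fold lower in WT cells. For Eif4ebp2, the other 3 probe sets above the floor were lower by 1.75-fold to 1.93-fold in KO-labelled and by 2.08-fold to 2.53-fold in WT cells, so the size given above holds for its brightest probe set only. The 4 probe sets of Eif3c lay between -0.41 and -0.17 in KO-labelled and between -0.28 and -0.19 in WT cells, and the 3 of Eif4a1 between -0.78 and -0.58 and between -0.66 and -0.37. Eif2ak3 and Eif2ak4 each had 1 probe set above the floor.

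**Figure D5:**
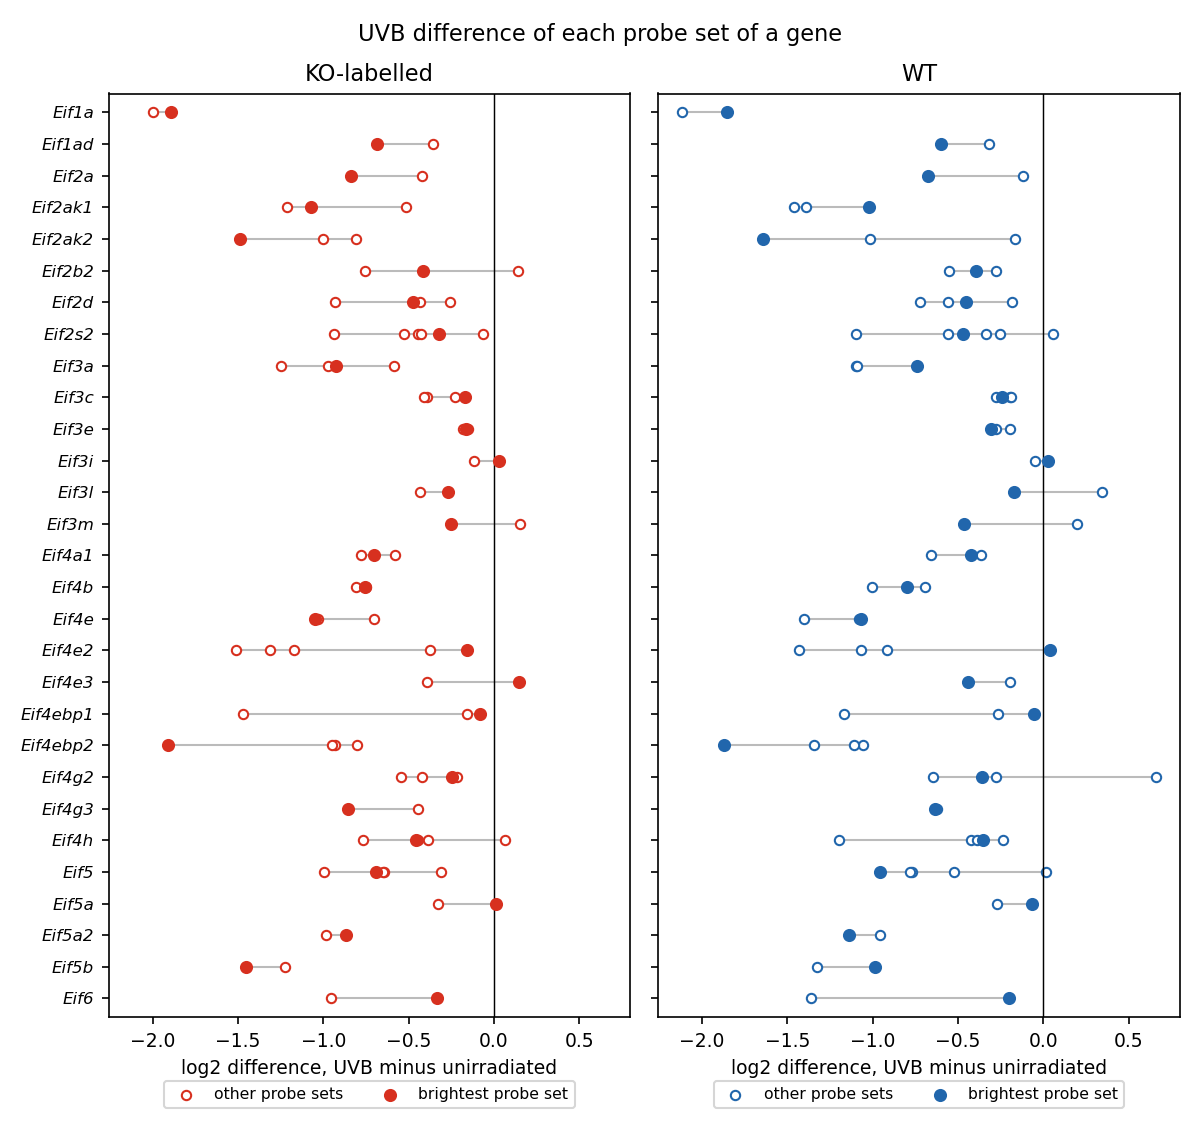
Log2 signal difference, UVB minus unirradiated, of every probe set at or above the floor for the 29 genes with 2 or more, in KO-labelled (left) and WT cells (right), with the brightest probe set filled and the others open. Eif3e and Eif4a1 probe sets lie close together, while those of Eif4e2 run between -1.51 and -0.15 in KO-labelled and between -1.43 and 0.04 in WT cells.

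Other genes of translational control were taken from a list of 40, of which 37 were matched and tested. By the limma fit 27 of 37 fell after UVB (69.4% of all tested genes did) and 0 rose, against 5 lower and 8 higher after quantile normalization and 1 lower and 21 higher after median centring. Their median log2 difference after UVB was -0.66 in KO-labelled and -0.62 in WT cells, against -0.82 and -0.70 over all tested genes. Among the genes around eIF2, Nck1, an adaptor that has been tied to dephosphorylation of eIF2, had 71.6 units after UVB and 324 units without it in KO-labelled cells, and 68.7 units after UVB and 353 units without it in WT cells. Ppp1r15b, the constitutive regulator of the eIF2 phosphatase, had a limma effect of -1.37 (adjusted p = 4.3e-05). Ppp1r15a, the inducible regulator GADD34, had 259.8 units after UVB and 407 units without it in KO-labelled cells, and 423 units after UVB and 439.9 units without it in WT cells. Atf4, the transcription factor translated when eIF2 is phosphorylated, had 3378 units after UVB and 4424 units without it in KO-labelled cells, and 2370 units after UVB and 3631 units without it in WT cells.

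Eef1a1, which brings tRNA to the ribosome, Eef2, the translocase, and Pabpc1, which binds the poly(A) tail, had limma effects of -0.09, -0.03 and -0.09, and none passed (adjusted p = 0.37, 0.79 and 0.34). Pdcd4, an inhibitor of eIF4A, fell by 1.36 (limma adjusted p = 0.00019). For genotype, 2 of 37 were higher and 0 lower by the limma fit, where 0.967% of all tested genes were higher and 0.642% lower. The list had the same counts after quantile normalization, whereas 0 passed after median centring. Ddit3, which encodes CHOP, a transcription factor downstream of ATF4, had 407 units in KO-labelled and 179.6 units in WT cells after UVB, and 665 units in KO-labelled and 447 units in WT cells without irradiation, an effect of 0.88 (limma adjusted p = 0.037). Eef2k, the kinase that inhibits eEF2, had 396 units in KO-labelled and 222 units in WT cells after UVB, and 734 units in KO-labelled and 484 units in WT cells without irradiation, an effect of 0.72 (limma adjusted p = 0.036).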

How the data were processed

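RNA of 4 keratinocyte cultures was measured on 4 Affymetrix arrays, 1 per group, from 0.2 ug total RNA per the labels' protocols. The genotype and stress labels set the groups. The authors deposited 1 linear intensity for each probe set, made with MAS5 per the submitters' processing notes. The version and scaling target were not given in the sources used here, and the array medians differ. Probe sets were named from the platform annotation, and 34945 of 45101 carried 1 symbol.

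From these values, intensities below the floor of 24.9 units were raised to it, log2 was taken, and differences were computed for 11379 genes. Pairwise calls need a 2-fold difference in size, and folds that involve values under the floor are lower limits. Irradiation and genotype were additive terms of a model fitted with limma 3.58.1 (R 4.3.3; empirical Bayes with an intensity trend, 1 residual and 8.13 prior degrees of freedom, calls at a Benjamini-Hochberg adjusted p under 0.05). Tested on simulated data of 11379 genes for the UVB effect, the model found 84 of 100 genes changed by 1 on the log2 scale, 100 of 100 changed by 2, and 20 of 11179 unchanged genes. The simulated noise was independent between genes and arrays, with no differences between cultures. Few genes were changed, all of them upwards, and no difference in scale between arrays was simulated. The 20 calls therefore say nothing of errors that come from array scale.

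Values on every array are given for the kinases, the cap-binding, scaffold, helicase and eIF4E-binding genes, and the 5 highest and 5 lowest members of each comparison. The members, roles, lists and settings were chosen with earlier results of these data known. Alternatives were quantile normalization, median centring, floors at the 25th and 75th percentile, 1.5-fold and 3-fold thresholds, a mean over probe sets, leaving out probe sets that may cross-hybridise (marked x or s), limma without the trend and limma with only the factor in question. The number of arrays limits the precision. Promoter sequences are from RefSeq, GRCm38.p6. Figures were drawn with matplotlib 3.10.9.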

Additional observations from a re-analysis of the deposited data

Results flagged for a closer look

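For 3 genes the UVB difference had opposite signs in the 2 genotypes, a contrast that was not tested, with 1 array per group. Eif4e3 had a log2 difference after UVB of 0.15 in KO-labelled and -0.44 in WT cells, so the responses differed by 0.58. Its other probe set was lower after UVB in both genotypes, at -0.39 in KO-labelled and -0.19 in WT cells. Eif4e2 had -0.15 in KO-labelled and 0.04 in WT cells, a difference of -0.20. Eif5a had 0.01 in KO-labelled and -0.07 in WT cells, a difference of 0.08, and its other probe set had -0.33 and -0.27.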

How the results depend on the processing

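No paired analysis was possible because each group has 1 array and the groups share fewer than 2 replicate numbers. For the same reason no replicate could be left out. The 2-fold lower calls after UVB in KO-labelled cells (10) became 4 after quantile normalization, 3 after median centring, 19 at 1.5-fold and 5 at 3-fold, and the higher calls (0) became 1 and 5 under the rescalings. In WT cells the lower calls (11) became 6, 2, 20 and 5, and 7 with the floor at the 75th percentile, and the higher calls (0) became 5 after median centring. Between genotypes after UVB, 1 gene was lower at 1.5-fold (Eif5b) and 3 were higher (Eif1b, Eif2b4 and Eif4e3), and 1 was 2-fold higher with the mean of probe sets (Eif4e3). The limma calls of lower signal after UVB (33) became 14 after quantile normalization, 6 after median centring and 20 without the intensity trend, and those of higher signal (0) became 7 and 29. For genotype, 1 gene (Eif5b) became lower after quantile normalization and 1 (Eif4e3) higher with the mean of probe sets. The other alternatives kept these counts within 1.5 times. Of the genes described one by one, Eif1b, Eif2b3, Eif2b4, Eif3b, Eif3d and Eif4g2 no longer passed as lower after UVB without the intensity trend. The first 4 of them also did not with irradiation as the only factor, where 25 members passed as lower. Under both alternatives other members lost the call too.

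Single effects were followed for the genes described one by one, and others turned too, since all 11 eIF3 subunits passed as higher after median centring. After both quantile normalization and median centring, limma UVB effects of followed genes turned positive for Eif1b (0.52 and 0.64), Eif2a (0.18 and 0.34), Eif2ak1 (0.0472 and 0.0524), Eif2b3 (0.31 and 0.69), Eif2b4 (0.23 and 0.54), Eif2b5 (0.51 and 0.96), Eif3b (0.16 and 0.80), Eif3d (0.0035 and 0.77), Eif3k (0.26 and 0.99), Eif4e2 (0.48 and 1.04), Eif4e3 (0.92 and 0.95), Eif4ebp1 (0.27 and 1.03), Eif4g3 (0.23 and 0.36) and Eif5a2 (0.0753 and 0.0975). After median centring alone they did so for Eif2b1 (0.11), Eif3a (0.27), Eif4a1 (0.54), Eif4e (0.0442), Eif4g2 (0.80) and Eif5a (1.07). The pairwise UVB differences of Eif2ak1 became 0.0632 and 0.0595 in KO-labelled and 0.0312 and 0.0454 in WT cells under the rescalings, and those of Eif4e 0.0849 and 0.0034 after median centring. Scaling each array to a common level removes the lower array medians after UVB, and whether those medians reflect the RNA or the array was not tested. Values near the floor, as for Eif2ak3 and Eif2ak4, give limits only.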

Other observations

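Of 7 melanocyte markers, 7 were at or above the floor on both KO-labelled arrays, and 6 after UVB and 7 without it in WT cells. For the fibroblast list the counts were 8 of 8 on both KO-labelled arrays, and 7 after UVB and 8 without it in WT cells. Members with ETS letters in the promoter window had a median limma UVB effect of -0.34 (10 genes), and members with an entry but without these letters one of -0.77, as a description of this set. With and without the letters the medians were -0.43 and -0.75 for the E-box, -0.56 and -0.74 for CCAAT, and -0.60 and -0.57 for the GC box. The members with ETS letters included 4 eIF3 genes and 0 eIF2 kinase genes, and motif and role were not separated. Sesn2, an inhibitor of mTOR signalling, had 107 units in KO-labelled and 239 units in WT cells after UVB, and 279 units in KO-labelled and 305 units in WT cells without irradiation. Mknk1, a kinase of eIF4E, had 44.0 units in KO-labelled and 65.6 units in WT cells after UVB, and 145 units in KO-labelled and 112 units in WT cells without irradiation.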
